A study of Mus musculus with 59 samples.

Results

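Branched-chain amino acid catabolism is described here through 9 genes, Bcat1, Bcat2, Bckdha, Bckdhb, Dbt, Bckdk, Ivd, Mccc1 and Slc25a44, which were taken by name from the gene count tables. All 9 were found among the 55341 genes listed. Expression was measured by RNA-seq in brown adipose tissue (BAT), the heat-producing fat depot, of 59 male C57BL/6J mice aged 8 to 12 weeks. The question was how thyroid hormone (TH), cold and a short high-fat diet change these genes, and whether the mouse line called BATKO responds differently.

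The 59 mice formed 15 groups in 3 count tables. In the hormone table, 20 wild-type (WT) mice were made hypothyroid with propylthiouracil (PTU), a drug that blocks TH synthesis, and had either PTU alone or PTU and TH for 3, 6, 12 or 24 h, with 4 mice at each point. The same table held 5 BATKO mice with PTU alone and 5 BATKO mice with PTU and 24 h of TH. In the temperature table, control (CTRL) mice were kept at 30 °C (n = 4) or 4 °C (n = 3). BATKO mice were kept at 30 °C (n = 5) or 4 °C (n = 4). The name of that table gives 24 h for 4 °C and no time for 30 °C. In the diet table, CTRL mice received chow (n = 4) or high-fat diet (HFD) (n = 4). BATKO mice received chow (n = 2) or HFD (n = 3). The name of that table gives 3.5 days for HFD and no time for chow. Every mouse of the hormone table carried PTU, and no untreated euthyroid mouse was in it. The sources used here give neither the altered gene of BATKO nor the promoter that drives it, so no check of a targeted gene was made. The comparison groups of the BATKO mice are labelled WT in the hormone table and CTRL in the other tables.

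Leucine, isoleucine and valine enter catabolism by transamination, through BCAT2 in mitochondria and BCAT1 in the cytosol, and SLC25A44 carries them into mitochondria. The branched-chain keto acid dehydrogenase (BCKDH) complex then makes the irreversible step. Its E1 enzyme consists of BCKDHA and BCKDHB, its E2 core is DBT, and the kinase BCKDK switches it off by phosphorylating BCKDHA. IVD and MCCC1, a subunit of methylcrotonyl-CoA carboxylase, act further down on leucine. Brown fat is known as a site of branched-chain amino acid oxidation during cold exposure.

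Total counts per mouse ranged from 7805938 to 18073627 in the hormone table, from 8008348 to 12887313 in the temperature table and from 7612059 to 11533900 in the diet table. Counts on the mitochondrial genome made up between 39.2% and 55.7% of a mouse's total. All values below are read counts normalised by the trimmed mean of M-values (TMM) within a table, and each adjusted p comes from edgeR (quasi-likelihood F test) and was adjusted by the Benjamini-Hochberg method over all genes tested. A gene was called where the adjusted p was under 0.05. Where groups are said not to overlap, the share of all genes that did so was determined only between the lines with PTU alone and on chow. Elsewhere such statements describe the mice and have no background. The 7 brown adipocyte markers, among them Ucp1 and Cidea, were detected in all 59 mice. In WT mice, the known TH-responsive gene Hr rose from 13.5 ± 3.84 (SD, n = 4) with PTU to 319 ± 56.7 at 24 h, and Klf9 from 1019 ± 95.8 to 2529 ± 293. The summed counts of 6 skeletal muscle markers ranged from 6.94 to 83811 over all mice, so the amount of muscle RNA differed widely between libraries. In bulk tissue, fewer cells of a type and less RNA per cell cannot be told apart.

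Of the 9 members, 8 were well detected. Levels were compared per length of exon, as RPKM computed from the normalised counts. On this scale Dbt had the highest level in the WT mice with PTU alone, at 70.6, and Bckdha followed at 54.8. Bckdhb stood at 39.2, Ivd at 37.2, Slc25a44 at 23.7, Bckdk at 16.1, Bcat2 at 8.99 and Mccc1 at 8.11. The single-mouse ranges of Dbt and Bckdha, of Bckdhb and Ivd, and of Bcat2 and Mccc1 overlapped in that group, and the other neighbours in the order did not overlap. On this scale the genes of the BCKDH core were at several times the level of Bcat2, the transaminase ahead of them. The gap depends on the length used, which joins all annotated exons. It was 3900 bases for Bcat2 and 10952 for Mccc1, against 1899 for Bckdha, 1805 for Bckdhb and 3348 for Dbt. Mean counts were 461 for Bcat2, 1168 for Mccc1, 1369 for Bckdha, 931 for Bckdhb and 3112 for Dbt. The lengths of the transcripts expressed were not determined.

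The order changed in the other tables. In CTRL mice at 30 °C Bckdha was highest at 46.5 RPKM, and Dbt stood at 25.3, overlapping with Ivd at 26.3. In CTRL mice on chow Dbt was first again at 39.9 and overlapped with Bckdha at 37.4. Each table was normalised on its own, and no test was made across tables.

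Bcat1 was close to the detection limit. Its level was 0.0191 RPKM with PTU, 0.0961 at 30 °C and 0.0999 on chow, and in the hormone table no mouse had more than 12 reads of it. It stayed under the mean count of 10 required for testing in the hormone and temperature tables, so 8 members were tested there and all 9 in the diet table.

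**Figure D1:**
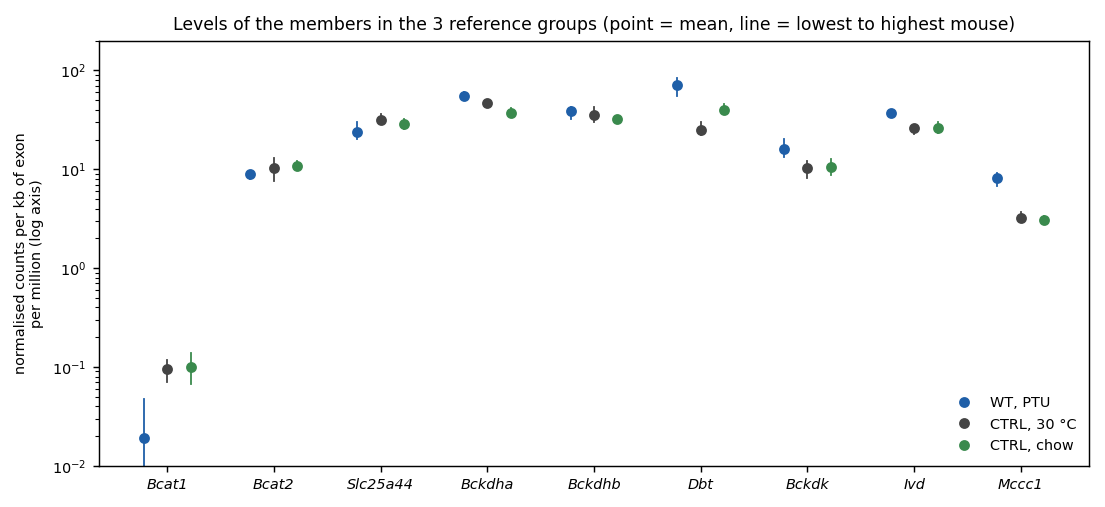
Levels of the 9 members in the reference group of each table, as RPKM from normalised counts on a log axis, with the mean as a point and a line from the lowest to the highest of 4 mice. The line of Bcat1 with PTU reaches 0 and is drawn to the lower edge of the axis; the other 8 genes lie between 3.08 and 70.6.

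Shared reads could affect some counts. Bckdha lies on chromosome 7 (25629946-25658981, minus strand, GRCm38), and 61.66% of its exon bases overlap with exons of B3gnt8 on the opposite strand. B3gnt8 had at most 13 reads in any mouse, against Bckdha group means from 546 to 1775. Bcat2 shares 15.95% of its exon bases with the antisense gene 0610005C13Rik, which had at most 7 reads. Mccc1 shares 1.81% with the antisense gene Mccc1os, and the strand setting of the counting is not given in the sources used here.

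Promoter windows of 300 bases (RefSeq, GRCm38.p6) were matched for 7 of the 9 members, and Dbt and Slc25a44 were not matched. The windows at the gene start of 3 members that rose at 4 °C and of Bcat2, which went the other way in BATKO mice, are shown. Capitals mark the TH receptor half-site AGGTCA and the CCAAT box on either strand, and all sequences read 5′ to 3′ along the gene.
Bckdhb, chr9:83924887-83925186, plus strand: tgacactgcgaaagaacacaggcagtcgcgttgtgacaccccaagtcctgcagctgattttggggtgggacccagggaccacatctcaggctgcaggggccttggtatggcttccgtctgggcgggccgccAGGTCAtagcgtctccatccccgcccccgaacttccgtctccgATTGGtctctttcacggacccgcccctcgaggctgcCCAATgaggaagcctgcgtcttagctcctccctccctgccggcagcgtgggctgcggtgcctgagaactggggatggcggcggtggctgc
Mccc1, chr3:36000629-36000928, minus strand: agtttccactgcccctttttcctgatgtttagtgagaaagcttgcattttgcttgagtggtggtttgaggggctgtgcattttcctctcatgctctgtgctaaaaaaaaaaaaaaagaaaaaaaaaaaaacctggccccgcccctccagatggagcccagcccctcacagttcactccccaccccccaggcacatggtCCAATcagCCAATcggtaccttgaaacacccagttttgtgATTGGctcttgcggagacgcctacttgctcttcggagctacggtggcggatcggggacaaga
Bckdha, chr7:25658712-25659011, minus strand: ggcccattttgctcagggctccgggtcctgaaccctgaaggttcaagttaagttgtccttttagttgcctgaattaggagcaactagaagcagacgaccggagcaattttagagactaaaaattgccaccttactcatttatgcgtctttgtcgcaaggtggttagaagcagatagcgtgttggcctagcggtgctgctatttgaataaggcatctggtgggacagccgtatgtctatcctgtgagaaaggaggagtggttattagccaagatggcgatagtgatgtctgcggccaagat
Bcat2, chr7:45569903-45570202, plus strand: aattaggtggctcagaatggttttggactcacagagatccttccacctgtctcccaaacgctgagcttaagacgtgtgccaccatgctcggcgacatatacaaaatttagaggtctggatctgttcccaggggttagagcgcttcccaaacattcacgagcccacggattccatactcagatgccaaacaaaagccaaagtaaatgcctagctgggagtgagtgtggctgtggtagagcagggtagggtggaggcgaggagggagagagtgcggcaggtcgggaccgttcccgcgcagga
Bckdhb held 1 half-site and 2 CCAAT boxes in its window, and Mccc1 held 3 CCAAT boxes. Neither motif occurred in the windows of Bckdha and Bcat2. Ivd, which was not called in the cold, held 4 CCAAT boxes, Bckdk and Bcat1 held 1 each, and a second window of Bcat1 held a half-site. Among 32851 promoters of the same length, 16.3% held the half-site and 37.4% a CCAAT box. The full TH response element DR4, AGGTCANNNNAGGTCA, which contains the half-site, was in 0.0152% of promoters and the estrogen-related receptor element TCAAGGTCA in 0.423%, and neither was in a window of a member. These are matches of letters in a window, searched on both strands, not sites of binding.

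In hypothyroid WT mice few of these genes passed the test after TH, and those that did passed it at 6 h or later. At 3 h 0 of 8 members were called by edgeR (1 at an unadjusted p under 0.05, 0 by DESeq2), while 9.19% of all 13003 genes tested were. At 6 h Bcat2 was called (1 of 8, against 23% of all genes), and at 12 h Slc25a44 (1 of 8, against 25.7%). At 24 h Slc25a44 was higher (1 of 8, against 17.2% of all genes called higher) and Mccc1 and Ivd were lower (2 of 8, against 15.5% called lower). The shares of members called were thus below the background, except for those called lower at 24 h, a share above it that rests on 2 genes. The 4 contrasts share the same 4 PTU mice. The median log2 fold change of the 8 members at 24 h was -0.23, beside 0.01 for all genes. With all 30 mice of the table in the fit the call of Mccc1 held, while Bcat2 at 6 h (adjusted p = 0.0654), Slc25a44 at 12 h (0.0916) and 24 h (0.054) and Ivd at 24 h (0.0902) were no longer called.

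Slc25a44, the mitochondrial carrier, had normalised counts of 958, 975, 1108 and 1429 in the 4 WT mice with PTU alone. They were 1079, 1206, 1171 and 1291 at 3 h and 1165, 1312, 1325 and 1214 at 6 h. They reached 1334, 1604, 1520.2 and 1232 at 12 h and 1380.4, 1667, 1525 and 1235 at 24 h. The PTU mouse B5, at 1429, lay above all mice at 3 and 6 h and within the ranges at 12 and 24 h, so the groups overlapped. The log2 fold change was 0.36 ± 0.13 (SE) at 12 h (adjusted p = 0.0449) and 0.37 ± 0.13 at 24 h (adjusted p = 0.0288). Without PTU mouse B5, the log2 value was 0.50 at 12 h and 0.52 at 24 h. Both calls depended on single mice. The call at 12 h was lost without B2, B3, B4, B19, B20 or B21, with log2 values from 0.28 to 0.38 and adjusted p up to 0.146. The call at 24 h was lost without B2, B3, B4, B26 or B27, with log2 values from 0.30 to 0.37 and adjusted p up to 0.103. Brown adipocyte marker sums ran from 147753 to 244974 at 12 h and 129633 to 230864 at 24 h, against 93849 to 124092 with PTU. Of these 7 markers 2 were called higher at 12 h, and of 4 general adipocyte markers 1 was higher and 3 lower. At that time 1 of 3 white adipocyte markers was higher, and 1 of 3 endothelial and 1 of 4 fibroblast and preadipocyte markers were lower. The part of these markers in the Slc25a44 difference was not tested.

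Mccc1, of the leucine branch, had the smallest adjusted p among the members at 24 h. Its counts were 1311, 1296, 971 and 1095 with PTU and 947, 905, 797 and 840.1 at 24 h, with no overlap. The log2 fold change was -0.42 ± 0.12 (SE), a ratio of 0.746 (adjusted p = 0.00824), and the call held whichever of the 8 mice was left out. The antisense gene Mccc1os fell alongside from 33.6 ± 14.9 to 5.86 ± 1.58 (SD, n = 4), while the mean of Mccc1 went from 1168 to 872.

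Ivd, which acts one step before Mccc1 in leucine breakdown, had 2508, 2820.2, 2739 and 2709.9 with PTU and 2193, 2427, 2013 and 2363 at 24 h. All 4 hormone mice were below all 4 PTU mice. The log2 fold change was -0.26 ± 0.10 (SE), with an adjusted p of 0.045. This was at the limit, and the call was lost without B3, B4, B5, B24, B27 or B28, with log2 values from -0.28 to -0.21 and adjusted p up to 0.146. It was also lost without the count filter (adjusted p = 0.145), without mitochondrial genome genes (0.051) and with only the groups compared (0.084).

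Bcat2 was called higher at 6 h, and at no other time. It had 479, 457, 498 and 411 with PTU, and 469, 752, 764 and 733 at 6 h, where mouse B12 stood apart at the PTU level. The log2 fold change at 6 h was 0.54 ± 0.15 (SE), with an adjusted p of 0.0119, and the call held whichever of the 8 mice was left out. At 24 h the counts of 396, 358, 384 and 404 were all below those with PTU, but the log2 difference of -0.26 ± 0.15 was not called (adjusted p = 0.196). At 6 h 4 of 7 brown adipocyte markers were called higher too, with sums from 164656 to 196191 against 93849 to 124092, as was 1 of 3 white adipocyte markers, and 1 of 4 general adipocyte markers was lower. Their part in the Bcat2 difference was not tested.

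The E1 and E2 genes of the BCKDH complex were not called at any time. Bckdha averaged 1369 ± 110 (SD, n = 4) with PTU and between 1540.0 and 1667 at the later points, and its log2 difference at 24 h was 0.25 with a 95% interval from -0.02 to 0.52, although the groups did not overlap. Bckdhb went from 931 ± 118 to 815 ± 90.3 at 24 h (log2 difference -0.20, interval -0.41 to 0.01). Dbt went from 3112 ± 525 to 2864 ± 224 (log2 difference -0.12, interval -0.40 to 0.15). Bckdhb at 24 h was called without PTU mouse B4 (log2 -0.28, adjusted p = 0.028) or without hormone mouse B24 (log2 -0.28, adjusted p = 0.0388).

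Bckdk, the kinase that inactivates the complex, differed between the ends of the hormone series. Its counts were 942, 902, 1001 and 705 at 3 h and 518, 690.5, 784 and 581 at 24 h. From 3 to 24 h the log2 fold change was -0.44 ± 0.14 (SE), with an adjusted p of 0.0267, and it was the only member of 8 called in that contrast, where 21.2% of all genes were. Against PTU at 24 h the log2 difference was -0.29 (adjusted p = 0.118), and it was called without B27 (log2 -0.39, adjusted p = 0.04). The call between 3 and 24 h was lost without B7, B8, B9, B24 or B28, with log2 values from -0.44 to -0.35 and adjusted p up to 0.089. Bcat2 was called in that contrast without B9 (log2 -0.51, adjusted p = 0.0264). All 6 skeletal muscle markers were also higher at 24 h than at 3 h, with sums from 3198 to 13724 against 41.3 to 2898, and the 4 general adipocyte markers were lower, with sums from 95014 to 102140 against 154964 to 195020. The 3 red blood cell markers were lower too, where the 3 h mouse B11 had a sum of 15858 and the other 3 had from 2438 to 4273. The part of these markers in the Bckdk difference was not tested.

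**Figure D2:**
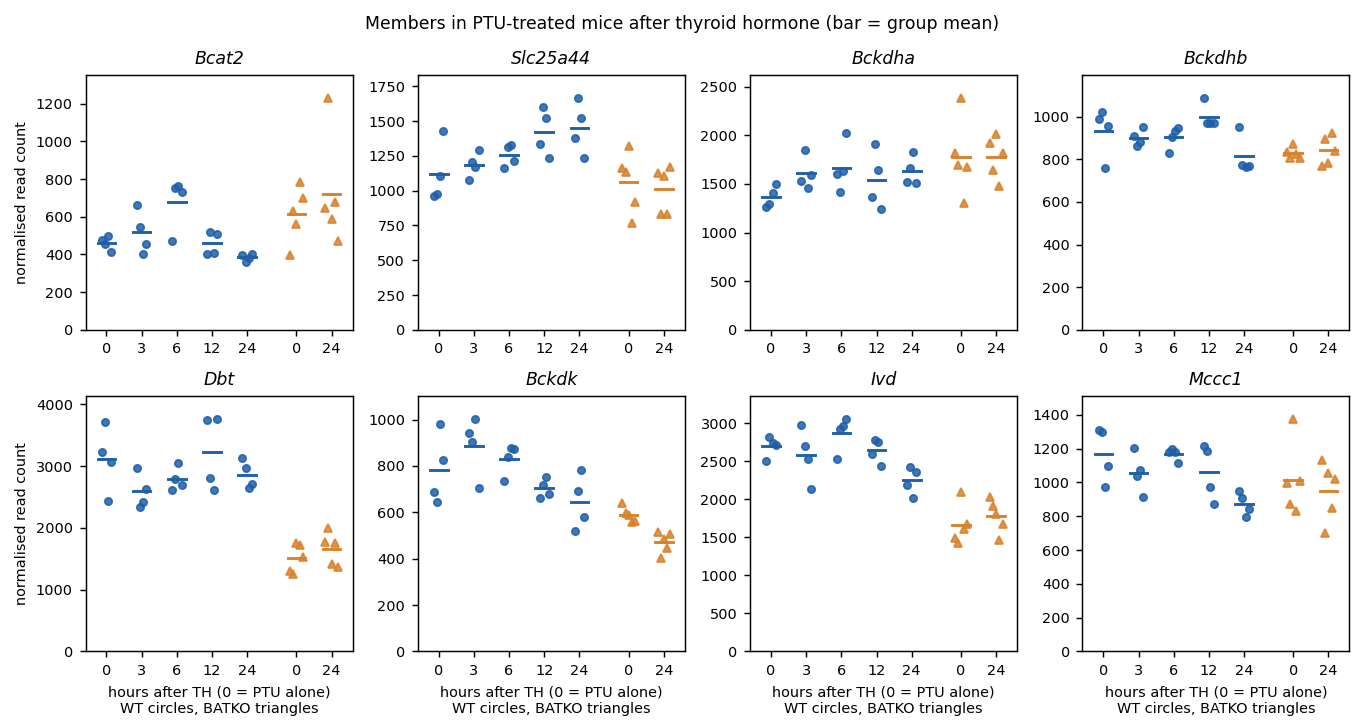
Normalised read count of the 8 tested members in each mouse of the hormone table, with WT as circles at 0 (PTU alone), 3, 6, 12 and 24 h after TH, BATKO as triangles at 0 and 24 h, and bars at the group means; the time axis is not to scale. Mccc1 and Ivd in WT mice lie lower at 24 h than at 0 h without overlap, and Dbt is lower in the BATKO than in the WT mice at both times.

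Genes around the members were tested as well, 27 of a list of 28 further enzymes, transporters and regulators of the pathway. In WT mice the number called was 5 after 3 h, 8 after 6 h, 9 after 12 h and 10 after 24 h. Of all genes 9.19%, 23% and 25.7% were called at the first 3 times, and 17.2% were higher and 15.5% lower at 24 h. At 24 h 2 of the 27 were higher and 8 lower, and their median log2 fold change was -0.23. Mcee, the methylmalonyl-CoA epimerase at the propionyl-CoA end of valine and isoleucine breakdown, rose from 512 ± 26.95 (SD, n = 4) with PTU to 816 ± 141 at 3 h and 1865 ± 69.6 at 24 h, where its log2 fold change was 1.86 ± 0.14 (SE). At 24 h it was the only one of 18 further enzymes that rose, while 6 fell. Aldh6a1, methylmalonate semialdehyde dehydrogenase of the valine branch, fell from 14235 ± 1999 to 9466 ± 2136 (log2 -0.59 ± 0.15, adjusted p = 0.00531).

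Of 4 plasma membrane amino acid carrier genes tested, 1 was called higher and 1 lower at 3 h, and 0 higher and 1 lower at 24 h. Slc43a2, a carrier of large neutral amino acids, rose from 192 ± 22.0 (SD, n = 4) to 632 ± 137 at 3 h (log2 1.69 ± 0.34 SE, adjusted p = 0.00262). Slc43a1 fell from 102 ± 30.6 to 47.2 ± 16.6 at 3 h and 31.6 ± 8.37 at 24 h (log2 -1.68 ± 0.25 at 24 h). Slc7a8, another amino acid carrier, was called at 6 h with a log2 value of 1.62 ± 0.42.

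Among regulators, Ppargc1a, the coactivator of mitochondrial genes, rose to 2269 ± 1079 at 6 h from 614 ± 354 (log2 1.86 ± 0.40 SE, adjusted p = 0.00199). Esrra, the estrogen-related receptor alpha, was still higher at 24 h (log2 0.48 ± 0.15). Klf15, a known activator of branched-chain amino acid genes, rose by 12 h (log2 1.01 ± 0.24) and was lower at 24 h than at 3 h (log2 -1.15 ± 0.24). Ppara, the fatty acid receptor, fell to 452 ± 54.0 at 12 h from 1169.5 ± 90.4 (log2 -1.36 ± 0.24), and Pparg, the adipocyte regulator, was lower at 12 h (log2 -0.38 ± 0.11). At 24 h all 4 general adipocyte markers were lower as well, their sums running from 95014 to 102140 against 175163 to 225387 with PTU. Of 7 brown adipocyte markers 2 were called higher and 2 lower at 24 h, and of 3 white adipocyte markers 1 higher and 1 lower. Of 3 endothelial markers 1 was higher and 1 lower, and 1 of 4 macrophage markers was higher. The part of these markers in the differences of the members was not tested.

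In BATKO mice no member passed the test after 24 h of TH. Of 14178 genes tested 0 were called by edgeR (0%), 673 had an unadjusted p under 0.05, and DESeq2 also called 0. Hr, called in WT mice, had 23.1 ± 15.5 (SD, n = 5) with PTU and 32.5 ± 22.1 with TH. Bckdk came nearest, with 640.0, 597, 590.0, 557 and 562 in the 5 PTU mice and 517, 403, 485, 447 and 506 in the 5 hormone mice. These ranges did not overlap, the log2 difference was -0.32 ± 0.11 (SE) and the adjusted p was 0.963. Slc25a44 had a mean of 1061 ± 217 (SD, n = 5) with PTU and 1013 ± 168 with TH (log2 difference -0.07, 95% interval -0.34 to 0.20). Mccc1 had 1017 ± 214 and 952 ± 174, and Ivd 1662 ± 262 and 1778 ± 219.

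The difference between the BATKO and the WT response was tested directly and 0 of 8 members were called by edgeR (2 at an unadjusted p under 0.05, 0 by DESeq2), against 12.3% of all genes. Slc25a44 had a difference in response of -0.44 on the log2 scale (95% interval -0.85 to -0.04, adjusted p = 0.143) and Ivd of 0.36 (interval 0.04 to 0.68, adjusted p = 0.13). Slc25a44 was called without WT mouse B5 (log2 -0.59, adjusted p = 0.0489) or BATKO PTU mouse 11 (log2 -0.54, adjusted p = 0.0498), and Ivd without BATKO PTU mouse 4 (log2 0.46, adjusted p = 0.0446). Of the 27 further genes 4 were called. Mcee had a difference of -1.55 ± 0.21 (SE), with 438 ± 122 and 546 ± 71.6 (SD, n = 5) in BATKO mice, and Ppara had a difference of 0.90. Slc43a1 was also called (adjusted p = 0.0192), with 81.2 ± 34.3 and 76.5 ± 39.4 in BATKO mice. All 4 general adipocyte markers and 1 of 7 brown adipocyte markers had a called difference above 0 in this test, and 1 of 3 white adipocyte markers below 0. Their part was not tested.

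With PTU alone the WT and BATKO mice of this table did not overlap for 59.8% of 14178 genes, and for 3 of the 8 members tested, Dbt, Ivd and Bckdk. Dbt ranged from 2443 to 3715 in WT and from 1252 to 1762 in BATKO mice, Ivd from 2508 to 2820.2 and from 1429 to 2098, and Bckdk from 645 to 980.2 and from 557 to 640.0. The median sum of the 7 brown adipocyte markers was 103622 in those WT mice and 32054 in those BATKO mice, and the sums of endothelial and white adipocyte markers did not overlap either. The lines carry separate numbering in the labels and no test of line was made here, so genotype and mouse set cannot be told apart.

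More members were called in the cold than after TH, and so were more of all genes, in separate tables with no test between them. After 24 h of TH in WT mice 17.2% of all genes were called higher and 15.5% lower. In CTRL mice at 4 °C 5 of 8 members rose against 30 °C (26.5% of 13267 genes were called higher) and 0 of 8 fell (22.6% were called lower). The 5 were Bckdha, Bckdhb and Dbt, which together encode the E1 and E2 parts of the BCKDH complex, Mccc1 and Slc25a44. In BATKO mice 4 of 8 rose (background 21.4%), namely Bckdhb, Dbt, Mccc1 and Slc25a44, and Bcat2 fell (1 of 8, background 18.9%). The median log2 fold change of the 8 members was 0.63 in CTRL and 0.43 in BATKO mice, beside -0.01 and -0.02 for all genes.

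Dbt, the E2 core, had the largest change among the members. Its counts were 941, 824, 861 and 1123 in the 4 CTRL mice at 30 °C and 1368, 1709.7 and 2538 in the 3 at 4 °C, with no overlap. The log2 fold change was 1.00 ± 0.25 (SE), with an adjusted p of 0.00391. BATKO mice had 881, 717, 897, 679 and 579 at 30 °C and 1295, 2044, 1532 and 842 at 4 °C. Mouse 12 at 4 °C lay within the 30 °C range, and the log2 fold change was 0.93 ± 0.22 (adjusted p = 0.00365).

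Bckdhb, the E1 beta subunit, rose in both lines. CTRL mice had 689, 597, 682 and 850.4 at 30 °C and 877, 1254 and 1273 at 4 °C (log2 0.69 ± 0.17 SE, adjusted p = 0.00334). BATKO mice had 623, 504, 739, 699 and 523 at 30 °C and 1104, 997, 841 and 919 at 4 °C (log2 0.64 ± 0.15, adjusted p = 0.00294). The temperatures overlapped in neither line. The difference of the responses was -0.04, with a 95% interval from -0.53 to 0.44.

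Bckdha, the E1 alpha subunit that BCKDK phosphorylates, was less even. CTRL mice had 963, 969, 951 and 1032 at 30 °C and 2113, 1843 and 1148 at 4 °C, and the third cold mouse (replicate 5) stood closer to the warm mice than to the other cold mice. The log2 fold change was 0.80 ± 0.17 (SE), with an adjusted p of 0.00105. BATKO mice had 1002, 1116, 1112, 1339 and 1183 at 30 °C and 1251, 1587, 1233 and 1519 at 4 °C, which overlapped (log2 0.28 ± 0.15, adjusted p = 0.149). The difference between the responses was -0.52 on the log2 scale (95% interval -0.999 to -0.03), with an adjusted p of 0.234. Without CTRL mouse 5 at 4 °C that difference was -0.73 (adjusted p = 0.0294), and the BATKO level at 4 °C was lower than CTRL by -0.53 on the log2 scale (adjusted p = 0.0476).

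Slc25a44 rose in both lines. It had 1195, 1186, 1158 and 1429 at 30 °C and 2061, 1764 and 1691 at 4 °C in CTRL mice (log2 0.57 ± 0.18 SE, adjusted p = 0.0162). BATKO mice had 895, 1252, 1286, 1647 and 1509 at 30 °C and 1722, 2503, 1929.5 and 2217 at 4 °C (log2 0.67 ± 0.16, adjusted p = 0.00334). The temperatures overlapped in neither line. Without CTRL mouse 1 at 4 °C the CTRL value was 0.44 and no longer called (adjusted p = 0.0931).

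Mccc1, which fell with TH, rose in the cold. CTRL mice had 352, 367, 375 and 453 at 30 °C and 549, 667 and 658 at 4 °C (log2 0.69 ± 0.23 SE, adjusted p = 0.0181). BATKO mice had 397, 263, 496, 346 and 222 at 30 °C and 631, 593, 437 and 404 at 4 °C (log2 0.58 ± 0.20, adjusted p = 0.0281), and these groups overlapped. The CTRL call was lost without cold mouse 2 (log2 0.65, adjusted p = 0.0575) or cold mouse 5 (log2 0.64, adjusted p = 0.0511). The BATKO call was lost without cold mouse 7 or 8 or warm mouse 14 or 17, with log2 values from 0.46 to 0.50 and adjusted p up to 0.103, and with only the groups compared in the fit (log2 0.57, adjusted p = 0.071).

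Bcat2 went against the members that rose. In BATKO mice it fell from 580, 648, 438, 477 and 657 at 30 °C to 258, 432, 334 and 397 at 4 °C, with no overlap (log2 -0.66 ± 0.19 SE, adjusted p = 0.0098). In CTRL mice it had 560, 469.6, 325 and 421 at 30 °C and 358, 378 and 271 at 4 °C, with a log2 difference of -0.40 (95% interval -0.85 to 0.04, adjusted p = 0.123). The difference between the lines was -0.25 (interval -0.84 to 0.34). Bckdk and Ivd were not called. Bckdk had 427 ± 65.7 (SD, n = 4) at 30 °C and 483 ± 132 (n = 3) at 4 °C in CTRL mice, and Ivd 1607 ± 157 and 1561 ± 104. Ivd in BATKO mice was called without cold mouse 8 (log2 -0.30, adjusted p = 0.044).

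**Figure D3:**
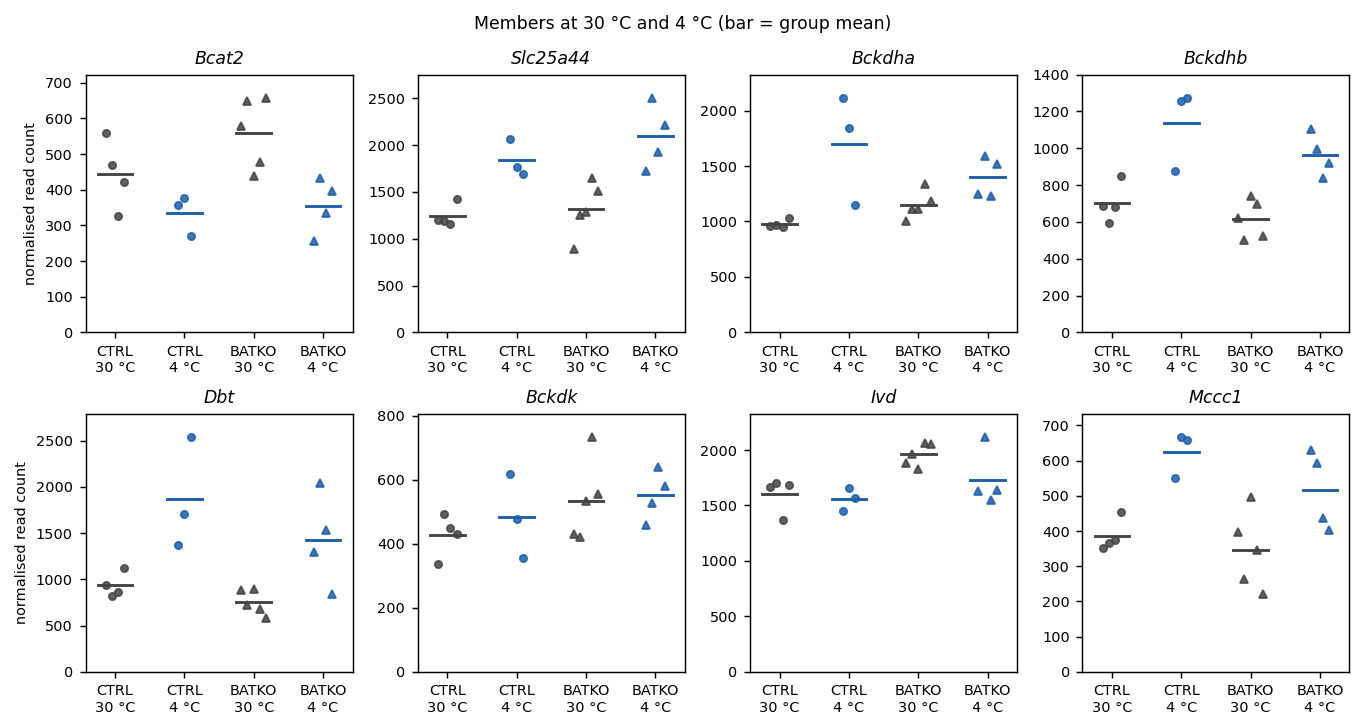
Normalised read count of the 8 tested members in each mouse of the temperature table, with CTRL as circles, BATKO as triangles, 30 °C in grey, 4 °C in blue and bars at the group means. Dbt, Bckdhb, Mccc1 and Slc25a44 have higher means at 4 °C in both lines, Bcat2 has lower means, and the 3 CTRL mice at 4 °C spread from 1148 to 2113 for Bckdha.

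The ratio of 2 members within a mouse needs no scaling between libraries, and is given without a test. Counts of Bcat2 per count of Bckdha were 0.454 ± 0.103 (SD, n = 4) at 30 °C and 0.203 ± 0.0332 (n = 3) at 4 °C in CTRL mice. In BATKO mice they ran from 0.356 to 0.581 at 30 °C (n = 5) and from 0.206 to 0.272 at 4 °C (n = 4). The ranges of the temperatures did not overlap in either line. Counts of the kinase Bckdk per count of its target Bckdha were 0.436 ± 0.0692 and 0.287 ± 0.0256 in CTRL mice, from 0.349 to 0.507 and from 0.259 to 0.309. In BATKO mice they were 0.460 ± 0.0629 and 0.399 ± 0.0817 and overlapped. These ranges were not apart in the cold alone. In WT mice Bcat2 per Bckdha ran from 0.274 to 0.379 with PTU and from 0.210 to 0.269 after 24 h of TH, and Bckdk per Bckdha from 0.498 to 0.694 and from 0.341 to 0.428. In CTRL mice Bcat2 per Bckdha ran from 0.492 to 0.675 on chow and from 0.335 to 0.483 with HFD.

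Genotype alone left the members uncalled at both temperatures. At 4 °C 0 of 8 members were called by edgeR (0 at an unadjusted p under 0.05, 0 by DESeq2), against 2.16% of all genes. At 30 °C 0 of 8 were called (1 at an unadjusted p under 0.05, 0 by DESeq2), against 0.00754%. That 1 was Ivd, with 1372.6 to 1706 in CTRL and 1830.4 to 2064 in BATKO mice (log2 0.29, adjusted p = 0.542). In the test of the difference between the cold responses 0 of 8 were called by edgeR (1 at an unadjusted p under 0.05, 0 by DESeq2), against 1.12% of all genes. Intervals were wide, as for Dbt at -0.07 (95% interval -0.79 to 0.65) and Slc25a44 at 0.10 (interval -0.41 to 0.61), so these data do not show that the lines respond alike.

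The further pathway genes were also called with temperature. In CTRL mice 12 of 27 rose and 5 fell, where 26.5% of all genes rose and 22.6% fell. In BATKO mice 10 rose and 6 fell, where 21.4% and 18.9% of all genes did. Their median log2 fold change was 0.40 and 0.18. Slc43a2 rose from 133 ± 14.8 (SD, n = 4) to 994 ± 343 (n = 3) in CTRL mice (log2 2.90 ± 0.23 SE) and from 165 ± 32.7 (n = 5) to 722 ± 164 (n = 4) in BATKO mice (log2 2.13 ± 0.20). Slc3a2, the heavy chain that partners the carrier Slc7a8 and not the Slc43 carriers, rose from 431 ± 64.3 to 2406 ± 520 in CTRL and from 556 ± 228 to 1120 ± 148 in BATKO mice. Its response differed between the lines (log2 -1.47 ± 0.34, adjusted p = 0.0486). It was the only one of 35 member and further genes of which edgeR called this with the filter used, while DESeq2 called 6 of the further genes, and edgeR 3 without the filter or with a mean count above 50. Slc43a1 fell from 235 ± 191 to 23.7 ± 4.70 in CTRL mice (log2 -3.30 ± 0.55) and from 171 ± 56.1 to 39.5 ± 15.8 in BATKO mice (log2 -2.11 ± 0.44).

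Among regulators Ppargc1a rose in CTRL (log2 2.57 ± 0.35 SE) and BATKO mice (log2 1.19 ± 0.30), and Ppara fell in both (log2 -1.16 ± 0.38 and -0.99 ± 0.32). At 4 °C the BATKO mice had less Ppargc1a (log2 -1.65 ± 0.34), Mcee (log2 -1.11 ± 0.21) and Slc3a2 (log2 -1.10 ± 0.25) than the CTRL mice. With only the groups compared in the fit, 1 of the 27 further genes was called in place of 4. Esrra, named after its value was seen, was the other one of the 4 called in that comparison (log2 -0.80 ± 0.20). Of the 7 brown adipocyte markers, Ppargc1a among them, 2 were called lower in these BATKO mice, with sums from 105715 to 192277 against 195058 to 251895. Of 3 endothelial markers 1 was lower and of 3 white adipocyte markers 1 was higher, and the part of these markers was not tested.

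Some further genes of the same steps were named after their values were seen. Dld, the E3 subunit that BCKDH shares with other dehydrogenases, rose from 1799 ± 344 (SD, n = 4) to 3487 ± 318 (n = 3) in CTRL mice (log2 0.95 ± 0.16 SE) and by 0.95 ± 0.14 in BATKO mice. Pcca and Pccb, the subunits of propionyl-CoA carboxylase, rose in CTRL mice by 0.99 ± 0.17 and 0.74 ± 0.14. Ppm1k, the phosphatase that reactivates BCKDH and so opposes BCKDK, fell from 155 ± 23.6 to 81.1 ± 27.4 in CTRL mice (log2 -0.93 ± 0.28, adjusted p = 0.01) and from 143 ± 40.7 (n = 5) to 67.4 ± 16.1 (n = 4) in BATKO mice (log2 -1.09 ± 0.24). Aldh6a1 fell in CTRL mice from 8049 ± 1479 to 3455 ± 1116 (log2 -1.22 ± 0.23).

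Markers of cell state moved with temperature too. All 7 brown adipocyte markers were higher at 4 °C in CTRL mice, with sums from 195058 to 251895 against 7925 to 31194, and 6 of 7 were in BATKO mice. Of 4 general adipocyte markers 3 were higher at 4 °C in each line, with sums from 173390 to 252115 against 74382 to 90199 in CTRL mice, and 1 was lower in CTRL mice. Of 3 white adipocyte markers 2 were lower in each line. Of 3 red blood cell markers 2 were higher at 4 °C in each line, with sums from 7858 to 17146 against 1790.0 to 3344 in CTRL mice. Of 4 fibroblast and preadipocyte markers 1 was lower in CTRL mice, with sums from 1912 to 2143 against 2332 to 3339. Of 3 endothelial markers 1 was higher in CTRL mice and 1 lower in BATKO mice, and 1 of 4 macrophage markers was higher in BATKO mice. Their part in the changes of the members was not tested.

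**Figure D4:**
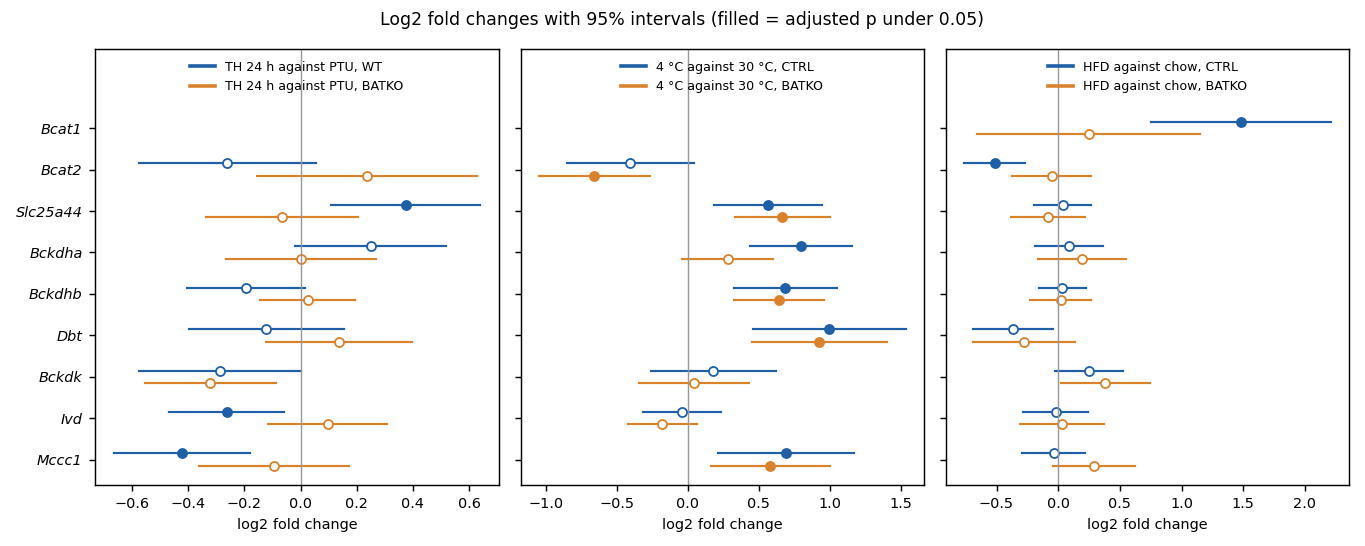
Log2 fold changes of the members with 95% intervals for 24 h of TH, cold and HFD, in WT or CTRL mice (blue) and BATKO mice (orange), with filled points where the adjusted p was under 0.05. The cold panel holds the most filled points to the right of 0, Bcat2 lies left of 0 there, and Bcat1 with HFD in CTRL mice has the largest value, 1.48.

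In CTRL mice both transaminases were called with HFD, in opposite directions. Of 9 members 2 were called, against 3.94% of 12932 genes in either direction. Bcat1 passed the mean count of 10 over the diet table only through the groups where it was higher. Its mean was 8.07 in CTRL mice on chow and 22.5 with HFD, and 15.2 and 18.1 in BATKO mice on chow and with HFD. Its call is thus not independent of the filter, and with a mean count above 50 it was not tested. Bcat1, the cytosolic transaminase, had 7.34, 11.1, 8.38 and 5.45 on chow and 13.2, 22.8, 36.0 and 17.9 with HFD, from 6 to 11 and from 12 to 37 reads. The groups did not overlap, the log2 fold change was 1.48 ± 0.34 (SE) and the adjusted p was 0.0284. Bcat2, the mitochondrial transaminase, went the other way, with 409, 331, 339.8 and 384 on chow and 216, 244, 266 and 298 with HFD. These groups did not overlap either (log2 -0.51 ± 0.12, adjusted p = 0.0257).

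Neither call was firm. That of Bcat1 was lost without chow mouse 1, 2 or 4 or HFD mouse 9 or 10, with log2 values from 1.14 to 1.67 and adjusted p up to 0.0819. That of Bcat2 was lost without chow mouse 1 or 4 or HFD mouse 7 or 9, with log2 values from -0.51 to -0.44 and adjusted p up to 0.0679. HFD mouse 10, highest for Bcat1, also had the highest sum of 4 macrophage markers, 1142, where the other HFD mice had from 446 to 457 and the chow mice from 305 to 407. Of 4 fibroblast and preadipocyte markers 2 were called higher with HFD, with sums from 2463 to 3080 against 1797 to 2229. Of 7 brown adipocyte markers 2 were called higher, with sums from 32335 to 49298 against 20938 to 35769. The part of these markers in the differences of Bcat1 and Bcat2 was not tested.

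The other 7 members were not called. Bckdha had 616 ± 51.9 (SD, n = 4) on chow and 655 ± 131 with HFD, Bckdhb 510 ± 22.1 and 522 ± 15.6, and Slc25a44 891 ± 85.0 and 913 ± 105. Their 95% intervals were from -0.19 to 0.37, from -0.16 to 0.22 and from -0.20 to 0.27 on the log2 scale. Dbt had 1159 ± 116 and 898 ± 173 (log2 -0.37 ± 0.15 SE, 95% interval -0.69 to -0.04, adjusted p = 0.181), an interval below 0 without a call after adjustment.

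In BATKO mice HFD left 0 of 9 members called by edgeR (1 at an unadjusted p under 0.05, 0 by DESeq2), against 0.0696% of all genes. With 2 chow mice the intervals were wide. Bcat1 had 11.5 and 19.0 on chow and 18.5, 20.1 and 15.7 with HFD, and Bcat2 had 272 and 288 on chow and 301, 258 and 249.9 with HFD. The log2 differences were 0.25 (95% interval -0.66 to 1.15) and -0.05 (interval -0.37 to 0.27). Bckdk had 311 and 348 on chow and 470.3, 419 and 399 with HFD (log2 0.38 ± 0.17 SE, adjusted p = 0.301), without overlap.

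The lines were compared on each diet and in their response. With HFD 0 of 12932 genes were called by edgeR (0%, 691 at an unadjusted p under 0.05, 12 by DESeq2), and on chow 0 as well (0%, 1024 at an unadjusted p under 0.05, 31 by DESeq2). No member was among the DESeq2 calls. On chow both Bcat1 (log2 0.92, 95% interval 0.00 to 1.83, adjusted p = 0.631) and Bcat2 (log2 -0.39, interval -0.69 to -0.08, adjusted p = 0.494) lay outside the CTRL range in BATKO mice, as did Mccc1, with 242 and 264 against 275 to 323 (log2 -0.21, interval -0.52 to 0.11). With 2 BATKO mice on chow, 17.7% of all genes did so. Sums of 3 marker lists were also above the CTRL range on chow in those BATKO mice. They were 713 and 913 against 305 to 407 for macrophages, 1713 and 2802 against 798 to 1177 for white adipocytes, and 2922 and 3501 against 1797 to 2229 for fibroblasts and preadipocytes. Counts on the mitochondrial genome were 52.2% and 52.7% of the total in those BATKO mice and 43.5% to 50.1% in CTRL mice on chow. No marker of the 3 lists was called, and the part of the markers and of the mitochondrial share was not tested. The difference in diet response was -1.23 for Bcat1 (interval -2.40 to -0.07, adjusted p = 0.832) and 0.46 for Bcat2 (interval 0.06 to 0.87, adjusted p = 0.811). In that test 0 of all genes were called by edgeR (0%, 740 at an unadjusted p under 0.05) and 0 by DESeq2.

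**Figure D5:**
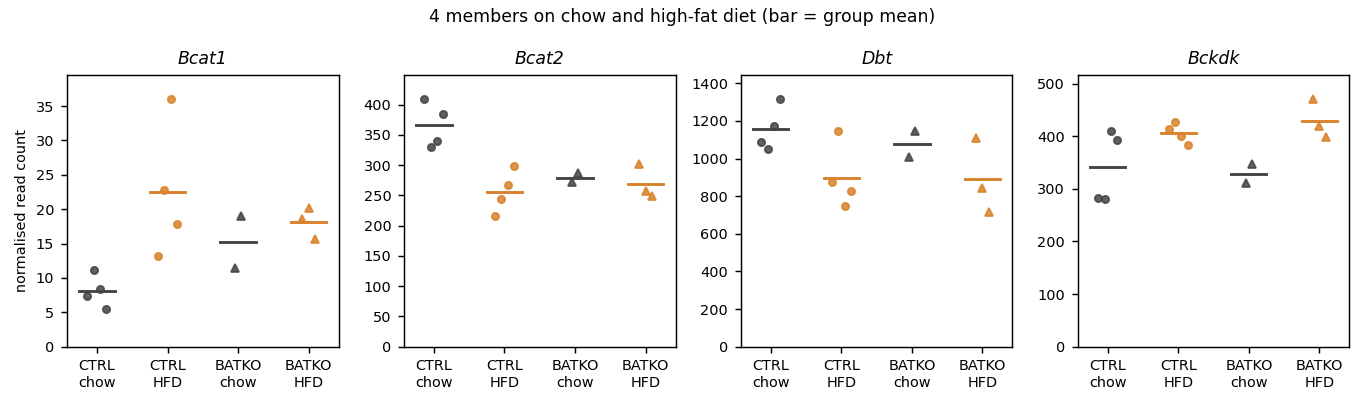
Normalised read count of Bcat1, Bcat2, Dbt and Bckdk in each mouse of the diet table, with CTRL as circles, BATKO as triangles, chow in grey, HFD in orange and bars at the group means. In CTRL mice Bcat1 lies higher (13.2 to 36.0 against 5.45 to 11.1) and Bcat2 lower (216 to 298 against 331 to 409) with HFD, and in BATKO mice the diets overlap for both.

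Of the 27 further genes tested in CTRL mice 1 rose and 4 fell with HFD, where 3.94% of all genes were called, and in BATKO mice 0 were called by edgeR (1 by DESeq2), where 0.0696% of all genes were. Pparg rose from 2715 ± 73.3 (SD, n = 4) to 3656 ± 355 (log2 0.43 ± 0.11 SE). Slc43a1 fell from 106 ± 16.2 to 32.3 ± 14.5 (log2 -1.72 ± 0.27), Aldh6a1 from 10054 ± 1711 to 6214 ± 830 (log2 -0.69 ± 0.17) and Ppm1k from 169 ± 18.9 to 114 ± 8.82 (log2 -0.57 ± 0.12). Ppara, named after its value was seen, was the fourth (log2 -0.52 ± 0.13).

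Genes most like each member were sought over all 59 mice, after each value was centred on the mean of its table, among genes with a mean count above 50 in all 3 tables. Pearson's r is given as a measure of likeness, with no p, since mice share groups, tables and sequencing depth. Among the 3 genes most like Dbt were Mut, the methylmalonyl-CoA mutase (r = 0.89), and Csnk1a1 (r = 0.88). Bckdhb was most like Uqcrc2 of respiratory complex III (r = 0.86), Mrpl51 and Rexo2. Among the 3 most like Bckdha were Mdh2, the mitochondrial malate dehydrogenase (r = 0.80), and Lrp10 (r = 0.79). Mccc1 was most like Lonp2 (r = 0.83), Decr1 and Hadhb, the latter a pair of fatty acid oxidation genes.

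Bcat2 was most like Glud1, glutamate dehydrogenase (r = 0.79), Ces1f and Abhd14b. Ivd was most like Gstz1 of tyrosine breakdown (r = 0.83), Smim14 and Psme1, and Bckdk like Tusc2 (r = 0.78), Slc36a2 and Ssr2. Among the 3 most like Slc25a44 were Dlst, the E2 subunit of oxoglutarate dehydrogenase (r = 0.78), and Pigq (r = 0.77). Bcat1 was most like Nrp1 (r = 0.60), Laptm5 and Stat6, at counts too low for a firm ranking.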

How the data were processed

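RNA-seq was performed on brown adipose tissue of 59 mice in 15 groups, taken from GEO's labels. The 3 deposited tables hold raw read counts per gene, made by the authors by alignment to mm10 with Bowtie, removal of low-quality alignments and counting with HTSeq. Bowtie2 2.3.2.2 and DESeq2 are named in the submitters' processing notes. The annotation and the strand setting are not given in the sources used here. All columns were matched to a mouse. In the tables, 14 gene symbols had turned into dates, with at most 0.0469% of counts, and were kept.

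Counts were scaled by TMM and tested with edgeR 4.0.16 (glmQLFit and glmQLFTest, R 4.3.3) within each table, for genes with a mean normalised count above 10, with Benjamini-Hochberg adjustment over all genes tested. WT time points were fitted over the 20 WT mice, BATKO hormone contrasts over all 30. There were 17 comparisons. SE is the log2 fold change divided by the square root of F. Nothing says more of the replicates than that they are separate mice, so p-values measure the spread between these mice. Contrasts that share control mice are not independent.

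Alternatives were DESeq2 1.42.0, its size factors (RLE), no filter, a mean count above 50, only the groups compared, no mitochondrial genome genes, all 30 mice for WT contrasts, and each mouse left out. The test was checked on simulated data. Exon lengths, positions and overlaps came from GENCODE on GRCm38. Members and gene lists were chosen with earlier results of these data known. Named by rule were the 9 members, the 3 further genes called with the largest log2 fold change in each direction (mean count above 50), Hr and Klf9. A few genes that this rule or the likeness ranking names are not reported here.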

Additional observations from a re-analysis of the deposited data

Results flagged for a closer look

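In groups of 4 or 5 mice, a mouse was singled out where its gap to the nearest other mouse, as a share of the group's range, was above Dixon's 95% critical value. Of 108 combinations of a member and a group 8 were singled out, and chance gives about 1 in 20, or 5.4.

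Bcat2 had 1 such mouse at 6 h of TH in WT mice, B12 at 469 where the others had 733 to 764 (gap share 0.896), and 1 in BATKO mice at 24 h of TH, mouse 8 at 1232 where the others had 473 to 677 (0.730). Bckdhb had B19 at 1089 against 970.1 to 973 at 12 h (0.980) and B24 at 949.8 against 764 to 776 at 24 h (0.938), both in WT mice. Ivd had mouse 21 at 1372.6 against 1663 to 1706 in CTRL mice at 30 °C (0.870) and mouse 8 at 2116 against 1546 to 1641 in BATKO mice at 4 °C (0.833). Slc25a44 had mouse 22 at 1429 against 1158 to 1195 in CTRL mice at 30 °C (0.865). Bcat1 had mouse 7 at 16.2 against 6.14 to 7.16 in BATKO mice at 4 °C (0.898), a handful of reads.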

How the results depend on the processing

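Of 881 log2 fold changes of members recomputed under alternatives that kept every mouse, 867 kept their direction and side of the threshold, 14 lost a call, 0 gained one and 0 reversed. With all 30 mice in the fit, members called in WT mice were 0 after 6 h of TH, 0 after 12 h and 1 after 24 h. With only the groups compared, 0 were called at 12 h, 1 at 24 h, 0 between 24 and 3 h, and 1 with HFD in CTRL mice. Without the filter and without mitochondrial genome genes 0 were called at 12 h. With a mean count above 50, 1 was called with HFD in CTRL mice, since Bcat1 was then not tested. Ivd at 24 h was also lost without the filter and without mitochondrial genome genes, and Mccc1 in BATKO mice in the cold with only the groups compared. The cause of the other losses was not tested. DESeq2 and RLE size factors changed no count of members called by over 1.5 times.

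With each mouse left out, members called ranged from 0 to 1 at 12 h, from 1 to 3 at 24 h and from 0 to 1 between 24 and 3 h of TH in WT mice, from 0 to 1 in the difference of TH responses, from 0 to 1 between the lines at 4 °C and in the difference of cold responses, and from 0 to 2 with HFD in CTRL mice. Where this left 1 BATKO mouse on chow, it was assumed to vary like the other groups. In the comparisons not named here it moved no count by over 1.5 times.

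No paired analysis was possible because the groups compared share no replicate numbers. Counts over all genes moved by over 1.5 times in these comparisons. Between 24 and 3 h of TH in WT mice edgeR called 1285 lower, and 806 with only the groups compared. Between the lines at 4 °C edgeR called 127 higher and 159 lower, DESeq2 216 and 423, and a fit of only the groups compared 16 and 45. Between the lines at 30 °C edgeR called 1 higher and DESeq2 6 higher and 2 lower. In the difference of cold responses edgeR called 42 and 107 and DESeq2 215 and 471. With HFD in CTRL mice edgeR called 245 and 264, DESeq2 446 and 426, edgeR without the filter 646 and 634 and with only the groups compared 133 and 188. With HFD in BATKO mice these were 4 and 5, 123 and 143, 145 and 191, and 28 and 38. Where edgeR called 0, DESeq2 called 5 and 7 between the lines with HFD and 31 higher on chow. Without the filter edgeR called 32 and 27 between the lines with HFD, 238 and 52 on chow (110 and 4 with only the groups compared) and 55 and 161 in the difference of diet responses, with no member among them. Of the further genes DESeq2 called 8 between the lines at 4 °C and a fit of only the groups compared 1, against 4. In the difference of cold responses DESeq2 called 6, and edgeR without the filter or with a mean count above 50 called 3, against 1. With HFD in CTRL mice a fit of only the groups compared called 3, against 5. With HFD in BATKO mice DESeq2 and that fit called 1 and edgeR without the filter 2, against 0, and between the lines on chow edgeR without the filter called 1, against 0. Depth limits Bcat1 most, at no more than 37 reads in a mouse.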
